A study of Mus musculus with 6 samples.

Results

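The 46 genes described here encode lysosomal proteins: 12 cathepsins, the tripeptidyl peptidase Tpp1, 10 glycosidases, 4 sulfatases, 7 proteins of lipid breakdown and sterol export, 2 acid phosphatases, 4 membrane proteins, 4 subunits of the proton pump, and 2 regulators. They were taken by gene symbol from a list that was drawn up with earlier results of these data known. All 46 were found among the 55809 gene rows of the count tables, and all 46 passed the filter on low counts that left 16716 genes for testing. Polyadenylated RNA was sequenced from skin mast cells of C57BL6J fetuses at embryonic day 18.5, gated as positive for CD45, CD117 and ST2 and negative for F4/80 and CD64, which are macrophage markers. Dams of both groups were 8 to 10 weeks old. For the prenatal stress group (PS), dams were held in tubes under bright light from about embryonic day 13 to 18, in 3 daily sessions of 30 minutes. Dams of the control group (CT) were not disturbed. PS and CT had 3 libraries each, every library a pool of 4 fetuses, and since the labels do not tie pools to dams, the tests measure the spread between pools.

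Lysosomes are acidic organelles in which hydrolases break down proteins, glycans, sulfated sugars and lipids. A proton pump, the V-ATPase, keeps them acidic, and many of their genes can be switched on together by the transcription factor TFEB. In mast cells the secretory granules are lysosome-related: they hold lysosomal hydrolases such as beta-hexosaminidase beside the proteases and histamine, and cathepsin C activates the stored chymases. Macrophages also carry large amounts of cathepsins and lysosomal membrane proteins.

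Libraries held between 51710555 and 74735139 counts in genes. Levels are in CPM, counts scaled to a common library total with TMM factors, and are summarised as mean ± SD over n = 3 pools per group. A log2 fold change is PS over CT, followed by its standard error. Adjusted p-values came from the quasi-likelihood test of edgeR and were adjusted by the Benjamini-Hochberg method over all 16716 genes. Transcripts known from macrophages were present in all libraries and were not equal between them. Which cells they came from was not measured. A list of 12 macrophage genes, chosen to hold no lysosomal gene, summed to 6005, 5152 and 9274 CPM in PS replicates 1, 2 and 3, against 7819, 8923 and 8791 CPM in CT replicates 1, 2 and 3. PS replicate 3 thus lay above all controls and the other 2 PS libraries below all controls. Of the 12 genes, 1 fell, none rose and 11 did not pass, while without PS replicate 3, 10 fell. By edgeR 0 rose at an unadjusted p under 0.05 as well and 6 fell, and DESeq2 and limma-voom also had 0 higher, with 2 and 1 lower. None of the 12 was at 0 in any library. A list of 13 mast cell genes summed to 95884, 107070 and 89023 CPM in the PS libraries and 74054, 61684 and 74215 CPM in the CT libraries, where replicate 2 was the lowest. In bulk RNA, fewer cells of a type and less RNA per cell cannot be told apart.

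Of the 46 genes, 5 were called at an adjusted p of 0.05. The galactocerebrosidase gene Galc, the beta-galactosidase gene Glb1, Tpp1 and the proton pump subunit gene Atp6v1h rose, by 1.22-fold to 1.51-fold, and the sulfatase gene Arsb fell to 0.666 of the CT level. The 5 called genes stand against 6.19% of all genes tested, the 4 higher against 4.34% and the 1 lower against 1.85%, and the remaining 41 did not pass. Scaled by library totals alone in place of TMM factors, the median log2 fold change over all genes was -0.119, and 3 of the 46 were higher and 5 lower, against 3.31% and 9.16% of all genes. Of all called genes 70.05% were higher with TMM factors and 26.5% with library totals. DESeq2 called 7 of the 46 higher and 4 lower, against 7.56% and 4.34% of all genes (11.9% in both directions). limma-voom called 4 higher and 1 lower, against 4.21% and 1.76%. At an unadjusted p under 0.05 by edgeR, 8 of the 46 were higher and 6 lower, against 13.3% and 11.6% of all genes tested, the shares that unadjusted counts of the gene groups also stand against. With the replicate number as a block, 3 were higher and 1 lower, against 2.81% and 0.915% (3.72% in both). The median log2 fold change of the 46 was 0.05, beside 0.00 for all genes tested with TMM factors. Groups did not overlap in 16 genes: 13 had all PS libraries above all CT libraries, against 16.0% of all genes tested, and 3 had all below, against 14.5%. Leaving out any one library other than PS replicate 3 left fewer calls among the 46 and among all genes. Without CT replicate 1, 2 were higher and 0 lower, against 2.28% and 0.410% of all genes. Without CT replicate 2, 2 were higher and 0 lower (1.19% and 0.135% of all genes), and without CT replicate 3, 1 and 0 (1.65% and 0.624%). Without PS replicate 1, 2 were higher and 1 lower (2.00% and 0.676%), and without PS replicate 2, 0 and 0 (0.981% and 0.164%). Without PS replicate 3 there were 6 higher and 10 lower, where 7.76% and 7.69% of all genes passed (15.4% in both directions). All of these are edgeR counts. At an unadjusted p under 0.05 the counts of 0 correspond to 5, 4 and 5 lower genes without CT replicates 1, 2 and 3, where 9.14%, 7.14% and 8.69% of all genes were lower by that measure. Without PS replicate 2 they correspond to 7 higher and 6 lower, against 9.44% and 8.06%. The mast cell list, with 9 of its 13 genes higher and none at 0 in any library, moved in the direction of the 4 genes that rose, and its part in them was not tested.

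**Figure D1:**
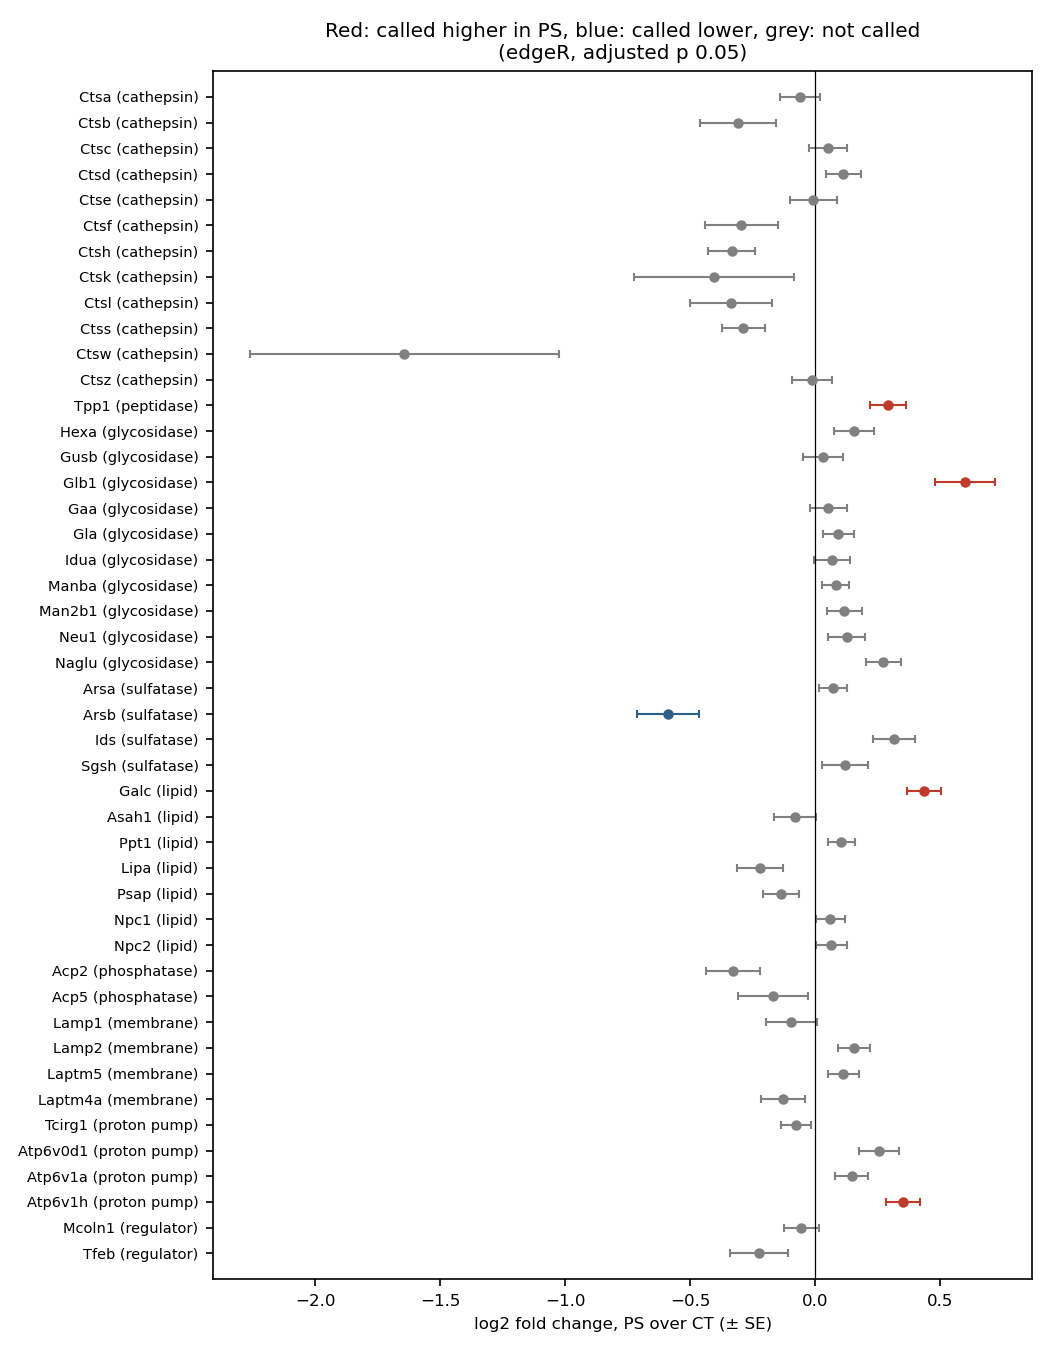
Log2 fold change (PS over CT, x axis) of the 46 lysosomal genes, by role, with bars of 1 standard error from edgeR. The 4 genes called higher are Tpp1, Glb1, Galc and Atp6v1h, the gene called lower is Arsb, and Ctsw, under 1 CPM in every library, has the widest error.

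Galc encodes the enzyme that removes galactose from galactosylceramide. It was at 493, 541 and 508 CPM in PS replicates 1, 2 and 3, against 402, 355 and 383 CPM in CT replicates 1, 2 and 3. All PS libraries lay above all CT libraries, and PS replicate 3 was between the other PS libraries. The mean was 514 ± 24.5 CPM in PS and 380.0 ± 23.4 CPM in CT (log2 fold change 0.44 ± 0.07, adjusted p = 0.0127). The call held without any one library other than PS replicate 2 (adjusted p = 0.0551). Galc was also the only one of the 46 that passed with the macrophage list mean as a covariate (0.39, adjusted p = 0.039), where 2.74% of all genes were called, 2.06% higher and 0.676% lower.

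Glb1, which removes terminal galactose from glycolipids and glycoproteins, had the largest positive log2 fold change of the 46. Its levels were 347, 379 and 377 CPM in the PS libraries and 276, 193 and 259 CPM in the CT libraries. The groups did not overlap, and CT replicate 2 was well under the other controls. Means were 368 ± 17.8 CPM in PS and 243 ± 43.7 CPM in CT (0.60 ± 0.12, adjusted p = 0.0272). The call ended without CT replicate 3 (adjusted p = 0.0658), PS replicate 1 (0.060) or PS replicate 2 (0.0983), and with the macrophage covariate (0.57, adjusted p = 0.0627).

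Atp6v1h encodes a subunit of the cytosolic V1 part of the proton pump that couples it to the membrane part. It was at 126, 146 and 142 CPM in PS and at 109, 104 and 111 CPM in CT. No PS library reached down to the controls (0.35 ± 0.07, adjusted p = 0.0237). The call held without PS replicate 1 or PS replicate 3 and ended without PS replicate 2 (adjusted p = 0.0948) or without CT replicates 1, 2 and 3 in turn (0.0701, 0.107 and 0.070). With the macrophage covariate the log2 fold change was 0.36 (adjusted p = 0.0528). Among the other pump subunits of the 46, Atp6v0d1, a subunit of the membrane part, was at 211, 234 and 245 CPM in PS against 198, 175 and 204 CPM in CT (adjusted p = 0.0902), and it was called higher by DESeq2 (0.0295) and by edgeR without a filter. Atp6v1a, which carries the catalytic site, averaged 329 ± 20.5 CPM in PS and 297 ± 12.8 CPM in CT (adjusted p = 0.212). In both genes all PS libraries lay above all CT libraries. Tcirg1, an a-subunit isoform of the membrane part, averaged 82.0 ± 1.93 CPM in PS and 86.5 ± 5.48 CPM in CT (adjusted p = 0.475).

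Tpp1 cuts tripeptides from the ends of proteins. Its levels were 540.2, 558 and 549 CPM in PS, a narrow range, against 472, 406 and 468 CPM in CT, where replicate 2 was the lowest. The log2 fold change was 0.29 ± 0.07 (adjusted p = 0.0478). This call was close to the threshold: it held only without PS replicate 3 (adjusted p = 0.0357) and ended without any other one library (0.0832 to 0.157), with the replicate number as a block (0.0931), with library totals alone (0.0667) and with the macrophage covariate (0.27, 0.144).

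Arsb, arylsulfatase B, removes sulfate from dermatan and chondroitin sulfate. It was at 14.0, 17.5 and 20.6 CPM in PS replicates 1, 2 and 3, against 24.9, 26.6 and 26.8 CPM in CT replicates 1, 2 and 3. All PS libraries were below all controls (-0.59 ± 0.12, adjusted p = 0.0311). The call ended without CT replicate 1 (adjusted p = 0.067), CT replicate 2 (0.131), CT replicate 3 (0.0927) or PS replicate 2 (0.104), and with the macrophage covariate (-0.43, adjusted p = 0.099). Genes on the opposite strand cover 39.9% of its exons in GENCODE M21, and since no source used here gives the strand setting of the counting, the level of Arsb is uncertain.

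**Figure D2:**
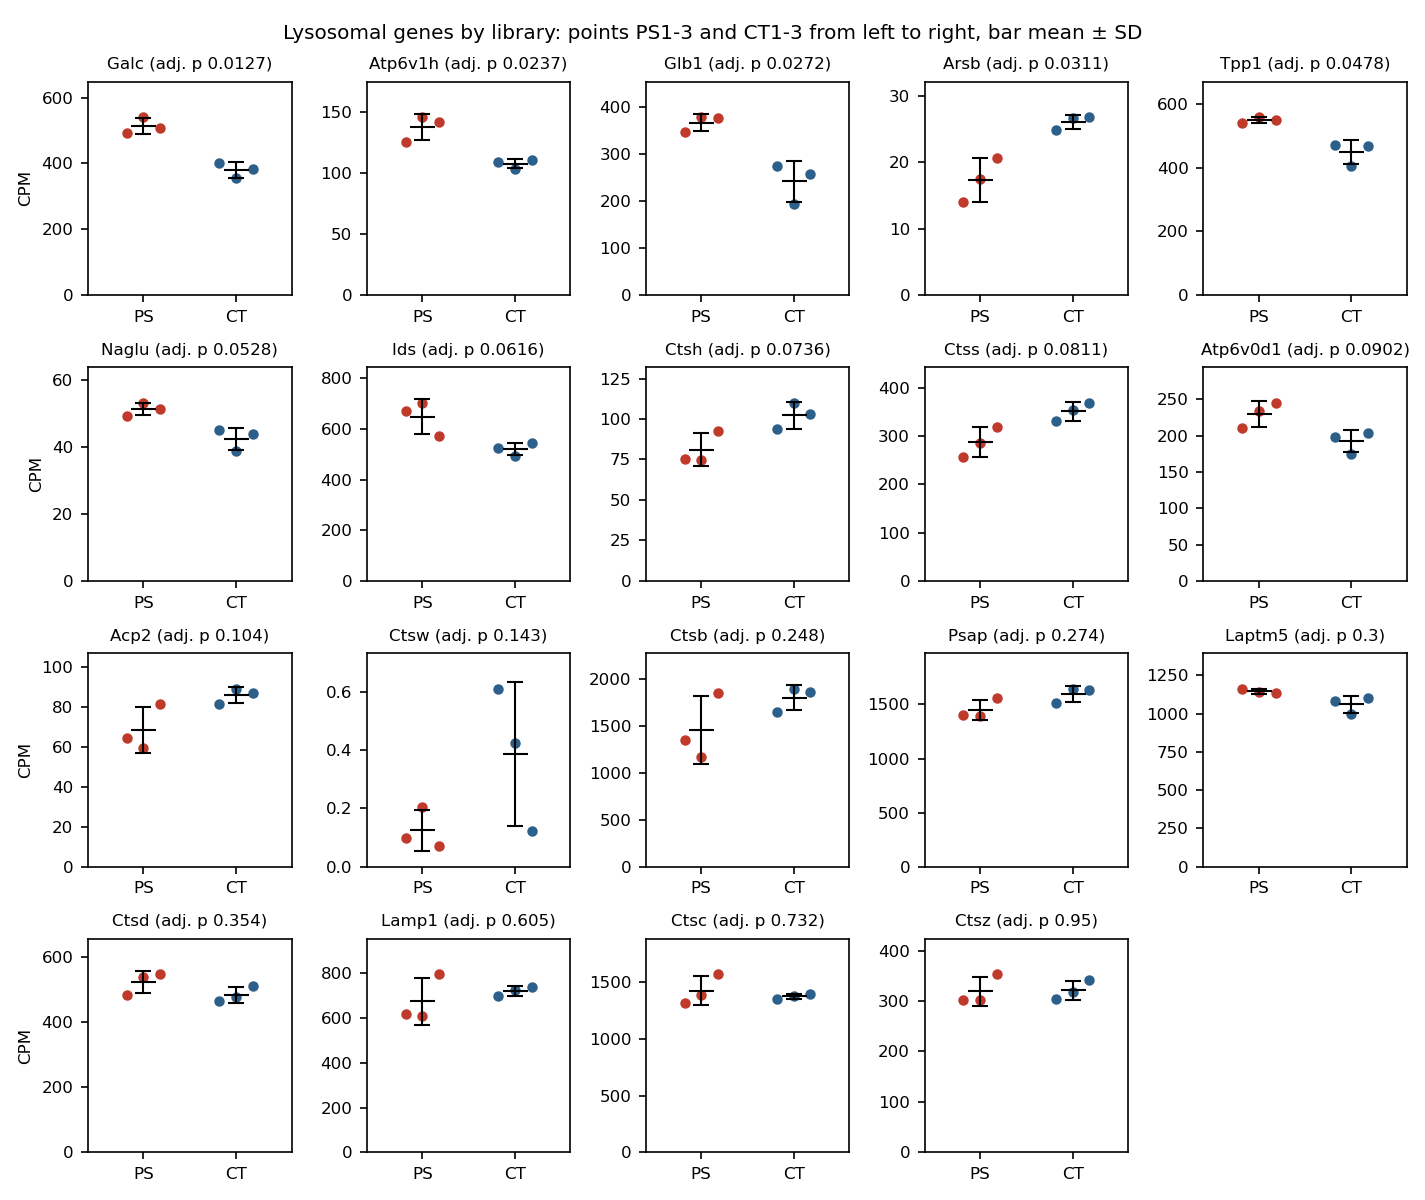
CPM (y axis, from 0) of the 12 genes with the smallest p and of the 8 with the highest level per length, 19 genes in all, in PS (left, red) and CT (right, blue). Points are single libraries and bars are mean ± SD (n = 3), with the edgeR adjusted p above each panel.

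The 10 glycosidases had log2 fold changes from 0.03 for Gusb to 0.60 for Glb1, all positive with TMM factors but only 5 of them with library totals alone. Of the 10, 1 rose, none fell and 9 did not pass. By edgeR 2 were higher and 0 lower at an unadjusted p under 0.05, DESeq2 called 2 higher and 0 lower, and limma-voom 1 and 0. Their summed level was 2547, 2618 and 2723 CPM in PS replicates 1, 2 and 3, against 2416, 2147 and 2465 CPM in CT replicates 1, 2 and 3. Each PS library was above each CT library in that sum. Naglu, which removes N-acetylglucosamine from heparan sulfate, missed the threshold by little, at 49.2, 53.1 and 51.4 CPM in PS and 44.8, 38.6 and 43.6 CPM in CT (0.27 ± 0.07, adjusted p = 0.0528). DESeq2 called it higher (0.0130), as did edgeR without a filter, with upper-quartile factors, with a stricter filter and without PS replicate 3. Hexa, the alpha subunit of beta-hexosaminidase, was at 392, 413 and 476 CPM in PS and 374, 371 and 405 CPM in CT (adjusted p = 0.274). Here PS replicate 3 was the highest library and the groups overlapped. The lysosomal alpha-mannosidase gene Man2b1 was at 876.0, 877 and 877 CPM in PS against 846, 732 and 845 CPM in CT (adjusted p = 0.340). Gaa, which breaks down glycogen, averaged 152.5 ± 5.27 CPM in PS and 147 ± 13.5 CPM in CT, and Gla, alpha-galactosidase A, 233 ± 2.52 CPM in PS and 219 ± 14.3 CPM in CT. Neither passed, with adjusted p of 0.707 and 0.388. Manba, a beta-mannosidase, averaged 75.9 ± 3.41 CPM in PS and 71.7 ± 0.563 CPM in CT, with no overlap. Idua, which acts on heparan and dermatan sulfate, averaged 41.0 ± 3.11 CPM in PS and 39.1 ± 2.13 CPM in CT, and Gusb, beta-glucuronidase, 308 ± 30.0 CPM in PS and 301 ± 13.7 CPM in CT. The adjusted p of these 3 were 0.369, 0.609 and 0.844. In 9 of the 10 glycosidases CT replicate 2 was the lowest control, which holds for 37.2% of all genes tested, and the same library had the lowest mast cell list sum. Without that library Glb1 kept its call (adjusted p = 0.0328) and Naglu was at an adjusted p of 0.180.

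Among the other sulfatases, Ids, which acts on heparan and dermatan sulfate, was at 670.4, 703 and 571 CPM in PS and 524, 494 and 543 CPM in CT (0.32 ± 0.08, adjusted p = 0.0616). PS replicate 3 was the nearest of the PS libraries to the controls without reaching them. With the macrophage covariate its log2 fold change was 0.17 (adjusted p = 0.291). It was called higher by DESeq2 (adjusted p = 0.00709), without a filter on low counts (0.0144) and without PS replicate 3 (0.40, adjusted p = 0.00511). Arsa, which desulfates sulfatide, averaged 68.5 ± 1.56 CPM in PS and 65.2 ± 3.38 CPM in CT, and Sgsh, a heparan N-sulfatase, 34.1 ± 3.09 CPM in PS and 31.3 ± 3.21 CPM in CT. Neither passed (adjusted p = 0.471 and 0.455).

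None of the 12 cathepsins was called by edgeR in either direction, with 0 higher and 3 lower at an unadjusted p under 0.05, where 13.3% and 11.6% of all genes tested passed. DESeq2 called 0 higher and 2 lower, and limma-voom called none. Their median log2 fold change was -0.29, and 10 of the 12 were negative with TMM factors and all 12 with library totals alone. Summed, the 12 were at 4344, 4311 and 5446 CPM in PS replicates 1, 2 and 3, against 4850, 5209 and 5285 CPM in CT replicates 1, 2 and 3. The PS libraries lay on both sides of the controls: replicates 1 and 2 below all of them, and replicate 3 above all of them.

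Ctsb, a cysteine protease and the cathepsin with the highest level per length, was at 1353, 1167 and 1860 CPM in PS and 1656, 1902 and 1862 CPM in CT (-0.31 ± 0.15, adjusted p = 0.248). Ctsl, a cysteine endopeptidase, was at 137, 140.3 and 220.1 CPM in PS and 195, 218 and 216 CPM in CT (adjusted p = 0.242). Genes on the opposite strand cover 26.85% of the exons of Ctsl, so its level is uncertain. Ctsf, another cysteine cathepsin, was at 17.5, 16.6 and 25.3 CPM in PS and 23.1, 25.9 and 23.8 CPM in CT (adjusted p = 0.248). In all 3 genes PS replicates 1 and 2 were below every control and PS replicate 3 was within or above the control range. Without PS replicate 3 they were called lower, with adjusted p of 0.00583, 0.00113 and 0.00306. The macrophage covariate also has PS replicates 1 and 2 below every control and PS replicate 3 within their range. With it, in all 6 libraries, the log2 fold changes of Ctsb, Ctsl and Ctsf were -0.01, -0.03 and -0.02. The 3 genes are grouped here by that same order of libraries. Their small values therefore follow from that choice and do not test a link to macrophages.

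Ctss and Ctsh were the cathepsins with no overlap between groups. Ctss, known for processing the invariant chain of MHC class II in antigen-presenting cells, was at 257, 285 and 319 CPM in PS and 330.4, 353 and 368 CPM in CT (-0.29 ± 0.08, adjusted p = 0.0811). Ctsh, an aminopeptidase, was at 75.5, 74.8 and 92.9 CPM in PS and 93.8, 110.0 and 103 CPM in CT (-0.33 ± 0.10, adjusted p = 0.0736). PS replicate 3 was just under the lowest control in each. DESeq2 called both lower, as did edgeR without PS replicate 3, without a filter and with library totals alone. With the macrophage covariate Ctss was at -0.18 (adjusted p = 0.330) and Ctsh at -0.16 (adjusted p = 0.265).

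The other cathepsins did not pass either. Ctsc was at 1319, 1384 and 1569 CPM in PS and 1349, 1381 and 1396 CPM in CT (0.05 ± 0.08, adjusted p = 0.732). Ctse, an aspartic protease, averaged 26.1 ± 2.34 CPM in PS and 26.3 ± 2.72 CPM in CT (-0.01 ± 0.09, adjusted p = 0.973). Ctsd, the main aspartic protease of lysosomes, was at 486, 540.1 and 548 CPM in PS and 466, 478 and 513 CPM in CT (adjusted p = 0.354). Its level is uncertain, since 31.3% of its 75-base stretches are shared with a further gene of the annotation. Ctsz, a carboxypeptidase, was at 301.0, 303 and 353 CPM in PS and 304, 317 and 342 CPM in CT (-0.01 ± 0.08, adjusted p = 0.950). Ctsa, a carboxypeptidase that protects Glb1 and Neu1 in a complex, was at 361, 356 and 428 CPM in PS and 389, 389 and 416 CPM in CT (adjusted p = 0.695), while its partner Neu1, a sialidase, averaged 95.9 ± 4.50 CPM in PS and 87.9 ± 7.63 CPM in CT (adjusted p = 0.318). Ctsw, known from natural killer and cytotoxic T cells, was at 0.0992, 0.204 and 0.0720 CPM in PS and 0.612, 0.425 and 0.123 CPM in CT, with 4 counts in the lowest library (-1.64 ± 0.62, adjusted p = 0.143). A list of 6 lymphoid genes summed to 42.9, 44.6 and 39.5 CPM in PS and 58.3, 60.9 and 55.1 CPM in CT, with 1 of 5 tested genes lower. Of the tested genes in that list, 1 had a positive log2 fold change. Its T cell marker Cd3e did not pass the filter on low counts. Cd3e was at 0 in all PS libraries and at 0.964, 0.136 and 0.0881 CPM in CT. Their part in the level of Ctsw was not tested.

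**Figure D3:**
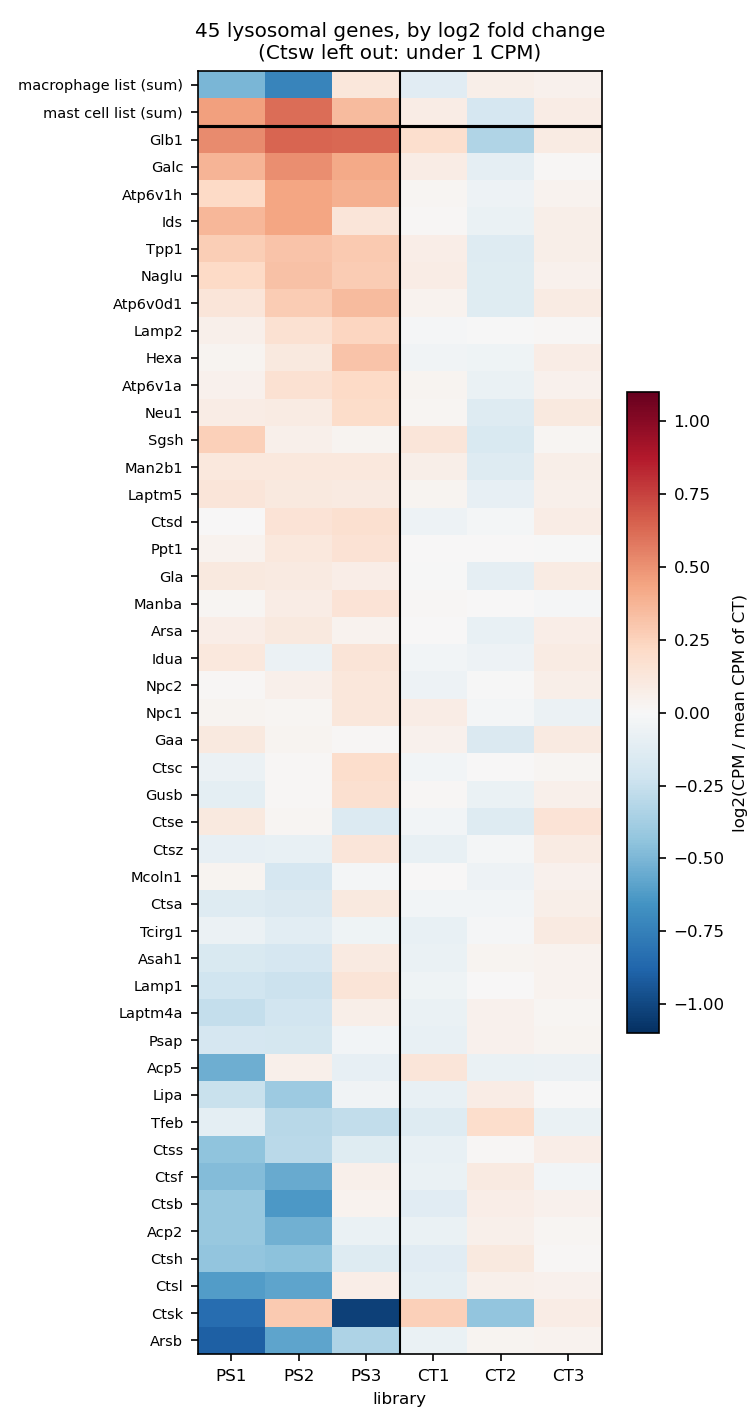
Log2 ratio of CPM to the mean CPM of CT (colour) in each library (columns, PS left of CT) for 45 of the 46 genes, ordered by log2 fold change, without Ctsw. The 2 rows on top give the summed macrophage and mast cell lists; PS replicate 3 is red in the macrophage row, where PS replicates 1 and 2 are blue, and the rows of Ctsl, Ctsb and Ctsf near the bottom show that split too, while Ctsk does not and Ctss and Ctsh are below the CT mean in all PS libraries.

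PS replicates 1 and 2 below all controls with PS replicate 3 not below them was found in 11 of the 46 genes, against 10.2% of all genes tested. The 11 were Ctsa, Ctsb, Ctsf, Ctsl, Ctsz, Asah1, Lipa, Psap, Acp2, Lamp1 and Laptm4a. Their sum was 4698, 4489 and 5861 CPM in PS replicates 1, 2 and 3, against 5347, 5842 and 5841 CPM in CT replicates 1, 2 and 3. The macrophage list had that order too, with 9 of its 12 genes in the same pattern. In the fit with the macrophage covariate the median log2 fold change of the 11 was -0.01, against -0.14 without it. The covariate has the order of libraries by which the 11 were picked. The smaller value therefore follows from that choice and does not test a link to macrophages. PS replicate 3 was the highest PS library in 28 of the 46 genes, against 35.4% of all genes tested. The pattern was looked for because that library was known to stand apart, so the counts describe it.

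Of the 7 genes of lipid breakdown and sterol export 1, Galc, rose, none fell and 6 did not pass. By edgeR 1 was lower at an unadjusted p under 0.05, and DESeq2 and limma-voom had 0 lower. Psap, the precursor of the saposins that help lipid hydrolases, had the highest level per length of the 46. It was at 1400, 1396 and 1560 CPM in PS and 1510, 1646 and 1632 CPM in CT (-0.14 ± 0.07, adjusted p = 0.274). Lipa, acid lipase, was at 64.7, 58.0 and 74.9 CPM in PS and 72.7, 81.2 and 76.2 CPM in CT (-0.22 ± 0.09, adjusted p = 0.180). By edgeR without PS replicate 3, Lipa was called lower (adjusted p = 0.0149). In Asah1, acid ceramidase, PS replicate 3 at 302 CPM was above all controls and the other PS libraries at 251 and 249 CPM below all of them. Ppt1, which removes fatty acids from proteins, averaged 123 ± 5.25 CPM in PS and 114 ± 0.208 CPM in CT, with no overlap (adjusted p = 0.258). The cholesterol exporters Npc1 and Npc2, of the membrane and of the lumen, averaged 80.7 ± 3.28 and 469 ± 18.8 CPM in PS and 77.4 ± 3.92 and 448 ± 18.3 CPM in CT, and neither passed (adjusted p = 0.564 and 0.548).

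Neither acid phosphatase was called (0 higher and 1 lower at an unadjusted p under 0.05 by edgeR, 0 and 1 by DESeq2, none by limma-voom). Acp2 was at 64.2, 59.5 and 81.5 CPM in PS and 81.3, 89.1 and 87.0 CPM in CT (-0.33 ± 0.11, adjusted p = 0.104), and it was called lower without PS replicate 3 (adjusted p = 0.00212), without a filter (0.0138), with library totals alone (0.0404) and by DESeq2 (0.0380). Acp5, the tartrate-resistant phosphatase of osteoclasts and macrophages, averaged 18.6 ± 3.81 CPM in PS and 20.9 ± 1.77 CPM in CT (adjusted p = 0.490). None of the 4 membrane proteins was called (1 higher and 0 lower at an unadjusted p under 0.05 by edgeR, none by DESeq2 or limma-voom). The membrane glycoproteins Lamp1 and Lamp2 differed in their order of libraries. Lamp1 was at 618, 611 and 795 CPM in PS and 699, 725 and 739 CPM in CT (-0.09 ± 0.10, adjusted p = 0.605). By edgeR without PS replicate 3, Lamp1 was called lower (-0.23, adjusted p = 0.0399). Lamp2 was at 427, 461 and 483 CPM in PS and 407, 410.0 and 414 CPM in CT (0.16 ± 0.06, adjusted p = 0.167), all PS libraries above all controls. The difference between the 2 genes was not tested. Laptm5, a membrane protein of haematopoietic cells, was at 1163, 1140 and 1134 CPM in PS against 1079, 997 and 1101 CPM in CT (adjusted p = 0.300). Its relative Laptm4a was at 129.6, 134 and 163 CPM in PS and 148, 159.8 and 158 CPM in CT (adjusted p = 0.401). Laptm4a too was called lower by edgeR without PS replicate 3 (adjusted p = 0.0265).

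**Figure D4:**
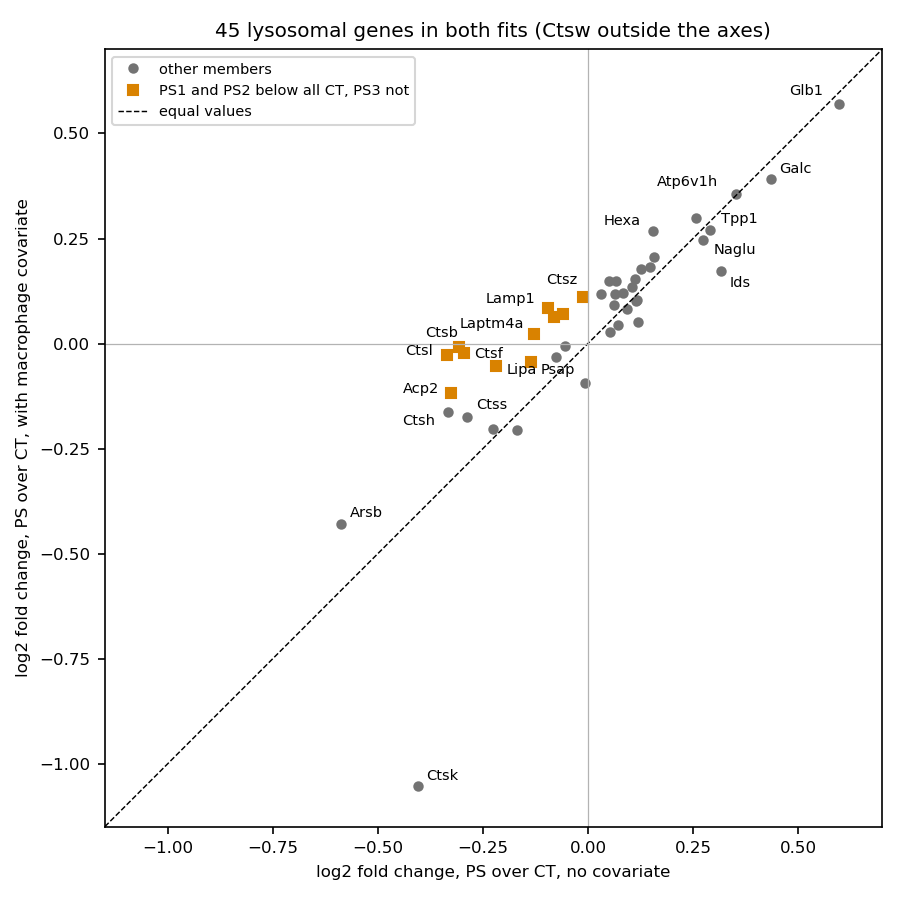
Log2 fold change (PS over CT) of 45 genes without a covariate (x axis) and with the mean of the macrophage list as covariate (y axis); Ctsw lies outside the axes. Orange squares mark the 11 genes with PS replicates 1 and 2 below all controls and replicate 3 not, which lie above the line of equal values, while Glb1, Galc, Tpp1 and Atp6v1h lie near it. The covariate has the order of libraries by which the 11 were picked, so the place of the squares follows from that choice.

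The regulators were at low levels and neither was called, with 0 at an unadjusted p under 0.05 and 0 by DESeq2 or limma-voom. Tfeb was at 6.64, 5.81 and 5.94 CPM in PS and 6.50, 8.20 and 6.82 CPM in CT (-0.23 ± 0.12, adjusted p = 0.264). Mcoln1, the lysosomal calcium channel TRPML1, averaged 31.7 ± 2.36 CPM in PS and 32.9 ± 1.20 CPM in CT (adjusted p = 0.673).

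TFEB binds a palindromic E-box in the promoters of lysosomal genes, known as the CLEAR element. Promoter windows of RefSeq (build GRCm38.p6, 250 bases before to 50 after the annotated start) were found for 39 of the 46 genes and for 27025 gene symbols in all. The core CACGTG occurred in a window of 14 of the 39 genes, or 35.9%, against 8.09% of all symbols. The longer TCACGTG, which contains that core, was searched on both strands and occurred in 12 of the 39 (30.8%) against 4.29% of all symbols, and TCACGTGA in 6 (15.4%) against 1.12%. The full 10-base CLEAR palindrome, which contains all of these, occurred in none of the 39 and in 0.37% of all symbols. The windows of 4 called genes are printed here to show which holds the core, and that of Gla because it holds TCACGTGA more than once; capitals mark CACGTG with an adjoining T before or A after it.
Glb1, chr9:114400828-114401127, plus strand: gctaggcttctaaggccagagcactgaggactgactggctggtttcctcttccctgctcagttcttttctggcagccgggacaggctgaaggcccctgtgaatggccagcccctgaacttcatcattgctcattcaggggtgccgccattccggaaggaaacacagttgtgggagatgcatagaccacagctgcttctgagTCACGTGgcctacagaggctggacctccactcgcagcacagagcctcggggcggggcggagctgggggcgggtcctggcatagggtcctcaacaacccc
Galc, chr12:98259410-98259709, minus strand: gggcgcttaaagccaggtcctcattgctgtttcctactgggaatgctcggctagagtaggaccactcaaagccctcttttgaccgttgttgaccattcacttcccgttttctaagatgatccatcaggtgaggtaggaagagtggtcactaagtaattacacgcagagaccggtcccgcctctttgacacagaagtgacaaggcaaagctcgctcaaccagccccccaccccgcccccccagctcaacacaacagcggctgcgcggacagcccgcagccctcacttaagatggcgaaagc
Tpp1, chr7:105752186-105752485, minus strand: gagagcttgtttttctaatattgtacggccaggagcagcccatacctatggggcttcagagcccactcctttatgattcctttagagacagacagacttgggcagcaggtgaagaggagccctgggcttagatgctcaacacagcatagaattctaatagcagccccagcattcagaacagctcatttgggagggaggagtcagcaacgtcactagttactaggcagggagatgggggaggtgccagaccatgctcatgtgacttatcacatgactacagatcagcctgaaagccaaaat
Arsb, chr13:93771429-93771728, plus strand: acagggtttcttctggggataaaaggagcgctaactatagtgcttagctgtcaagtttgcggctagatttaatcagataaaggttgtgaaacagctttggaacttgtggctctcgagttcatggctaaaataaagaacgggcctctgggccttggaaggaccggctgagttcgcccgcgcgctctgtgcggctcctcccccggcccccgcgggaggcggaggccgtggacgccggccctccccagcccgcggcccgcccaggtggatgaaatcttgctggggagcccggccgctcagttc
Gla, chrX:134600956-134601255, minus strand: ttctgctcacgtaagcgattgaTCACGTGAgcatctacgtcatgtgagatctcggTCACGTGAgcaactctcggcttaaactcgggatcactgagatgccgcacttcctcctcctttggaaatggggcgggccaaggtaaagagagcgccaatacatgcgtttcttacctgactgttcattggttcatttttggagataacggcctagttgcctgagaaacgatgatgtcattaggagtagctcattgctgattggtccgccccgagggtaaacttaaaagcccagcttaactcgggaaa
Only the Glb1 window of the 4 called genes holds the core, 48 bases before the start, and Gla holds it 227 and 194 bases before the start. For Atp6v1h, the remaining called gene, no window was found. The 12 genes with TCACGTG had a median log2 fold change of 0.10, with 1 higher and 0 lower by edgeR (3 and 0 at an unadjusted p under 0.05, 3 and 0 by DESeq2, 1 and 0 by limma-voom). The 27 without it had a median of 0.03, with 2 higher and 1 lower by edgeR (4 and 4 at an unadjusted p under 0.05, 3 and 3 by DESeq2, 2 and 1 by limma-voom). A match describes these letters and is not a measured binding site.

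Levels between genes were compared per length, as CPM per kb of merged exon length in GENCODE M21. They spanned from Ctsw at 0.0663 in PS and 0.205 in CT to Psap at 529 in PS and 582 in CT. The 8 highest genes after this scaling were Psap, Laptm5, Ctsb, Lamp1, Ctsc, Ctss, Ctsz and Ctsd, and below Psap they lay between 212 and 302 CPM per kb in PS and between 206 and 299 CPM per kb in CT. All 46 together summed to 14261, 14477 and 16086 CPM in PS replicates 1, 2 and 3, against 14435, 14468 and 15197 CPM in CT replicates 1, 2 and 3, so the groups overlapped in the total (mean 14941 ± 997 CPM in PS and 14700.1 ± 431 CPM in CT). PS replicate 3 had the highest total.

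**Figure D5:**
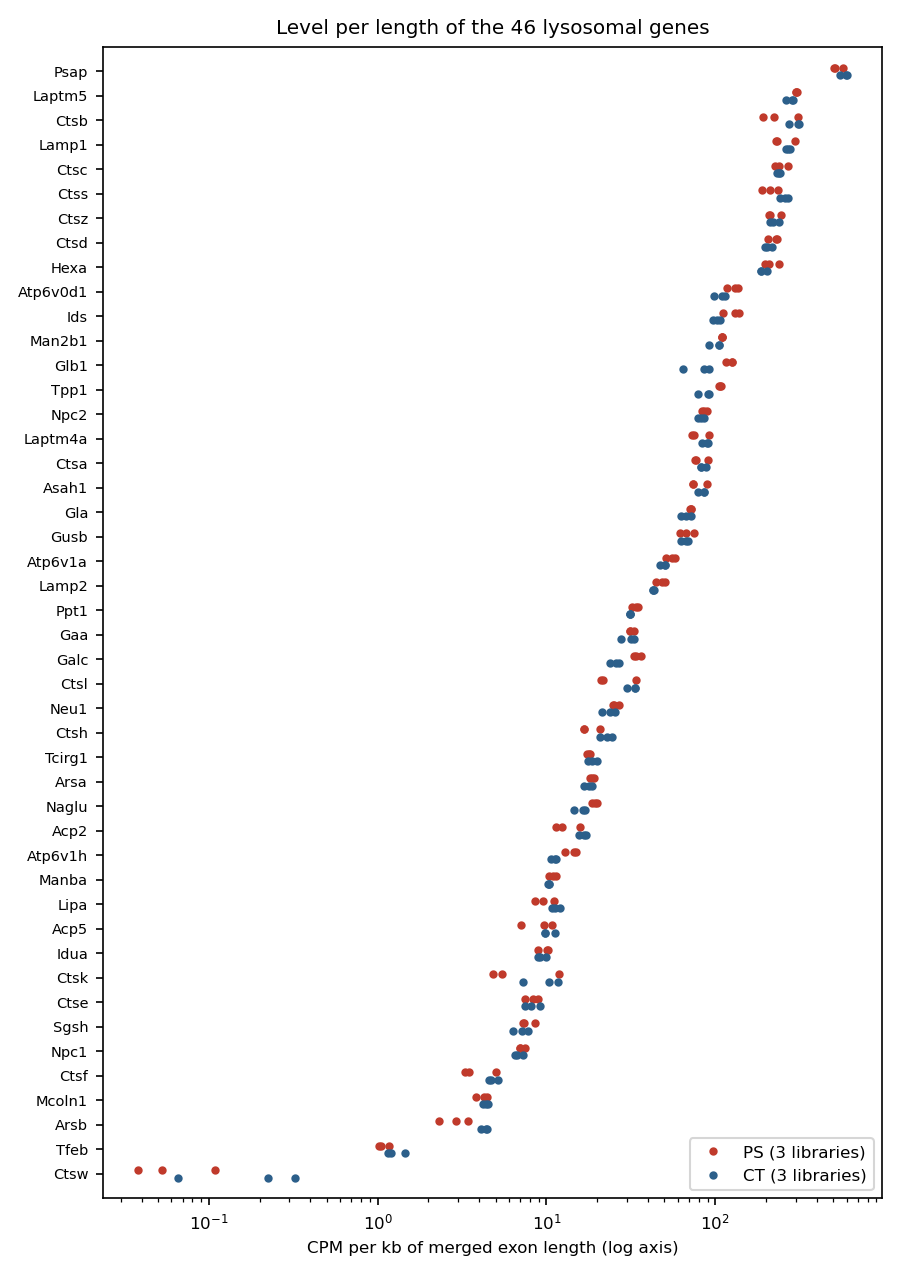
CPM per kb of merged exon length (x axis, log scale) of the 46 genes, ordered by their mean, with 1 point per library in PS (red, upper) and CT (blue, lower). Most genes lie between 1 and 300 CPM per kb, Psap above and Ctsw below that range, and the PS and CT points of most genes interleave.

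Other lysosomal genes outside the 46 were taken from a list of 174 symbols in 7 groups. The list also holds protease inhibitors, regulators, trafficking and autophagy genes. Of the 174 symbols 172 were in the tables and 162 were tested. Of the tested genes 19 rose, 3 fell and 140 did not pass, with a median log2 fold change of 0.07. Over all genes tested 4.34% were higher and 1.85% lower by edgeR, the shares that the edgeR calls of the groups below also stand against. Fuca1, alpha-fucosidase (0.32, adjusted p = 0.0317), and Gnptg, a subunit of the enzyme that tags hydrolases with mannose 6-phosphate (0.46, adjusted p = 0.0179), rose. For Gnptg an opposite-strand gene covers 49.5% of the exons, and its level is uncertain. The call of Fuca1 ended without CT replicates 1 and 2 or PS replicates 1 and 2 in turn (adjusted p 0.0533 to 0.128), with the macrophage covariate (0.0525) and with library totals alone (0.0516), and that of Gnptg without PS replicates 1 and 2 (0.0534 and 0.0707). Pla2g15, lysosomal phospholipase A2, fell to 33.4, 30.8 and 40.8 CPM in PS, against 44.4, 48.7 and 51.0 CPM in CT (adjusted p = 0.0392). Engase, a cytosolic endoglycosidase, fell (-0.63, adjusted p = 0.0214). The calls of Pla2g15 and Engase also ended with the macrophage covariate (adjusted p = 0.0777 and 0.0549). The call of Pla2g15 held only without PS replicate 3 (0.0637 to 0.154 otherwise), and that of Engase only without CT replicate 1 or PS replicate 3 (0.0535 to 0.100 otherwise).

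Among cathepsins outside the 46 and related peptidases, 4 of 11 tested rose and none fell (0 lower at an unadjusted p under 0.05 by edgeR, and 0 by DESeq2 or limma-voom). Of the 17 genes in this list, 11 were tested, and 5 were at 0 in a library. Ctsj and Ctsq belong to a rodent family of cathepsins known from the placenta. Other genes of that family in the list are not reported here. Ctsj was at 60.0, 80.9 and 51.2 CPM in PS, against 11.5, 3.52 and 8.05 CPM in CT, and Ctsq at 3.99, 4.55 and 3.54 CPM in PS, against 1.45, 1.19 and 1.46 CPM in CT (1.56 ± 0.16, adjusted p = 0.00225). On the log2 scale the difference in Ctsj was 3.04 ± 0.35 (adjusted p = 0.00477). Leaving out any one library kept both calls, as did the fit with the macrophage list mean (0.00175 for Ctsj and 0.00384 for Ctsq). Ctsg, the serine protease cathepsin G, was at 62.6, 67.5 and 55.2 CPM in PS, against 44.5, 43.2 and 47.2 CPM in CT (adjusted p = 0.0169), a call that held only without CT replicate 3 or PS replicate 3 (0.0554 to 0.0866 otherwise). Cpvl, a serine carboxypeptidase, was called at an adjusted p of 0.0496, a call that held only without PS replicate 3 (0.121 to 0.177 otherwise). It ended with the macrophage covariate (0.40, adjusted p = 0.242), limma-voom (0.0564), library totals alone (0.065), upper-quartile factors (0.0511) and the replicate block (0.0726), while Ctsg passed with the covariate (0.0446).

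Inhibitors of cathepsins and granule proteases rose in 3 of 10 tested genes, and none fell (0 lower at an unadjusted p under 0.05 by edgeR, and 0 by DESeq2 or limma-voom). Cst7, cystatin F, an inhibitor of cysteine cathepsins in immune cells, was at 137, 157 and 132 CPM in PS and 97.5, 86.2 and 100.1 CPM in CT (0.59 ± 0.08, adjusted p = 0.00935). Serpinb1a, an inhibitor of granule serine proteases, was at 3265, 3622 and 3271 CPM in PS and 2405, 2037 and 2408 CPM in CT (0.57 ± 0.09, adjusted p = 0.0114). Both calls held without any one library (adjusted p up to 0.0393 and 0.0441) and with the macrophage covariate (0.0175 and 0.0351). In both genes the PS libraries were all above the controls, PS replicate 2 the highest and CT replicate 2 the lowest. Ctla2a, known to inhibit cathepsin L-type proteases, also rose (adjusted p = 0.00833), but 15.9% of its 75-base stretches are found in other genes and its level is uncertain.

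In the list of other membrane proteins 3 of 35 tested genes rose and none fell by edgeR (3 lower at an unadjusted p under 0.05, 1 by DESeq2 and 0 by limma-voom). Cd63, a tetraspanin of granule membranes, was at 711, 732 and 699.5 CPM in PS and 579.9, 518 and 598.5 CPM in CT (0.34 ± 0.07, adjusted p = 0.0285). Cd68, a lysosomal glycoprotein abundant in macrophages, was at 214, 173 and 214 CPM in PS, against 148, 160.0 and 158 CPM in CT (0.37 ± 0.09, adjusted p = 0.0449), with PS replicates 1 and 2 above the controls where the macrophage list of 12 was below them. Ostm1, the partner of a lysosomal chloride transporter, averaged 89.5 ± 5.10 CPM in PS and 72.8 ± 4.06 CPM in CT (0.30 ± 0.07, adjusted p = 0.0349). Of these 3, Cd68 passed with the macrophage covariate (0.0183) and Cd63 and Ostm1 did not (0.0994 and 0.130). The calls of Cd63 and Ostm1 held only without PS replicate 3 (0.0623 to 0.107 and 0.0757 to 0.142 otherwise), and that of Cd68 only without PS replicates 2 or 3 (0.112 to 0.141 otherwise). None of the 3 passed with the replicate block (0.0706, 0.0751 and 0.0776 for Cd63, Cd68 and Ostm1), and Cd68 and Ostm1 did not pass with library totals alone (0.105 and 0.0638). Of 17 further pump genes 1 rose and none fell (0 lower at an unadjusted p under 0.05 by edgeR, and 0 by DESeq2 or limma-voom). It was Atp6v0e, a small membrane subunit, at 109, 117 and 115 CPM in PS, against 98.0, 89.0 and 93.6 CPM in CT (0.28 ± 0.06, adjusted p = 0.029, and 0.0787 with the macrophage covariate). The call held without PS replicate 1 or 3 and ended without any other one library (0.0574 to 0.123), with library totals alone (0.0625) and with the replicate block (0.0706).

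Among 30 regulators and trafficking genes 2 rose and none fell by edgeR (2 lower at an unadjusted p under 0.05, 1 by DESeq2 and 0 by limma-voom). They were Rab38 and Rab32, related GTPases of lysosome-related organelles such as melanosomes. Rab38 was at 10.0, 13.3 and 10.8 CPM in PS and 7.03, 4.78 and 6.27 CPM in CT (0.91 ± 0.16, adjusted p = 0.0169). Rab32 was at 106, 119 and 125 CPM in PS and 90.8, 91.9 and 97.2 CPM in CT (0.33 ± 0.07, adjusted p = 0.0328). With the macrophage list mean in the fit both passed (0.0417 and 0.0331). The call of Rab38 ended without CT replicate 2, CT replicate 3 or PS replicate 2 (0.0563, 0.0523 and 0.0650), and that of Rab32 without CT replicates 1, 2 and 3 or PS replicate 2 (0.0760 to 0.139) and with library totals alone (0.0651). Of the pigment cell markers 5 of 5 (Pmel, Mlana, Tyr, Dct and Tyrp1) rose as well, and none was at 0. Their sum was 39.2, 69.8 and 28.5 CPM in PS replicates 1, 2 and 3, against 19.5, 13.9 and 13.9 CPM in CT replicates 1, 2 and 3. It was lowest among the PS libraries in replicate 3, where Rab32 was highest. The part of pigment cells in the levels of Rab38 and Rab32 was not tested. The relatives of Tfeb did not pass, with adjusted p of 0.280 for Tfe3, 0.411 for Mitf and 0.152 for Tfec. Tfec was at 17.9, 15.6 and 28.4 CPM in PS, against 27.0, 33.7 and 27.9 CPM in CT. In the autophagy list of 16 genes Optn, an autophagy receptor, rose (0.41 ± 0.07, adjusted p = 0.0138), Ulk1, the kinase that starts autophagy, fell (-0.29 ± 0.05, adjusted p = 0.0193), and 14 did not pass. With the macrophage list mean in the fit Optn passed (0.0397) and Ulk1 did not (0.0613). The call of Optn ended without CT replicate 2 or PS replicate 2 (0.0678 and 0.0543), and that of Ulk1 without any control or PS replicate 2 (0.0651 to 0.0783).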

How the data were processed

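For each library the authors deposited raw read counts by gene symbol, without normalization. Per the submitters' processing notes the tools were FastQC, STAR 2.4 and HTSeq 0.9.1; both GRCm39 and mm10 are named there without a role. Annotation, strand setting and filters of the counting were not given in the sources used here. No coordinates of the counted genes are therefore printed, and promoter coordinates are those of the RefSeq table. The labels' protocols give stranded, poly-A selected, paired-end libraries. Rows that name no gene, 5 per table, were kept out; of all reads tallied, 79.7% to 81.4% were in genes, 7.83% to 9.78% in no feature, 1.77% to 1.85% ambiguous and 8.49% to 9.00% not uniquely aligned, so near-identical genes are undercounted.

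Genes were filtered with filterByExpr (minimum count 10) and scaled with TMM, and PS was tested against CT with edgeR 4.0.16 (glmQLFit, glmQLFTest, R 4.3.3) with no covariate, at a Benjamini-Hochberg adjusted p of 0.05. CPM use TMM-scaled totals of the genes tested. The common biological coefficient of variation was 10.4%. Alternatives tried were scaling by RLE, upper-quartile factors or totals alone, 2 other filters, DESeq2 1.42.0, limma-voom (limma 3.58.1), the replicate number as a block, the mean log2 CPM (prior count 2) of 12 macrophage genes as a covariate, and each library left out. The test was tried on counts simulated for this comparison over 16716 genes with 50 genes changed per fold: 12.0% of those changed 1.25-fold and 60.0% of those changed 1.5-fold were recovered, rising to 94.0% for 2-fold and 100% for 4-fold, and 6 of 139 calls were false.

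Genes printed library by library were first the called members and those with the smallest p, up to 12, and the 8 of the highest level per length; other members were named by role. Outside the 46, at most 6 called genes per list were taken, by smallest p. Some of these genes are not reported here. The members and lists were chosen with earlier results of these data known. Tfe3, Mitf, Tfec and the pigment cell genes were named after their values were seen. Exon lengths, overlaps and shared 75-mers come from GENCODE M21, whose build is GRCm38. Opposite-strand genes also cover 21.64% of the exons of Sgsh, 18.75% of Arsa and 17.37% of Ctsa, and smaller shares of some other members. With the strand setting unknown, these levels are uncertain too.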

Additional observations from a re-analysis of the deposited data

How the results depend on the processing

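Of the 46 genes 4 were called higher and 1 lower. Without a filter and with DESeq2, 7 were higher and 4 lower. Library totals gave 5 lower, and the macrophage covariate 1 higher and 0 lower (9 and 4 at an unadjusted p under 0.05 by edgeR). Leaving out 1 library gave 0 to 6 higher and 0 to 10 lower. Over all genes the 725 higher and 310 lower became 1123 and 810 without a filter, 1264 and 725 with DESeq2, and 345 and 113 with the macrophage covariate. Library totals gave 1532 lower, and leaving out 1 library 168 to 1330 higher and 23 to 1317 lower. For the other lysosomal genes, 19 higher and 3 lower, DESeq2 gave 33 and 6, and library totals 12 and 9. No filter gave 8 lower, the macrophage covariate 0 (5 at an unadjusted p under 0.05 by edgeR), and single libraries left out 6 to 29 higher and 0 to 22 lower. The counts over the other lysosomal genes were added after the data were seen. The summed level of the 46 was 241 CPM higher in PS, -940.0 CPM with library totals and -331 to 581 CPM with 1 library left out. The causes were not tested. Of 598 values of 40 single genes under these alternatives, 466 kept their side of the threshold, 107 lost and 25 gained a call, and 0 turned the direction of a call.

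The replicate number as a block gave 469 higher and 153 lower over all genes, and 3 higher and 1 lower of the 46, where Tpp1 lost its call and no other of the 5 did. Same-numbered libraries of the 2 groups had correlated deviations of 0.0954, -0.0188 and 0.0684 over 16716 genes, so the numbers were not taken as pairs. Changes of 1.25-fold, near those of Tpp1 and Atp6v1h, were mostly missed in the simulated counts. Those counts were drawn for each gene on its own and gave 139 calls, where the data gave 1035. With fewer calls the adjusted threshold is harder to pass, so the share recovered in the data is not known from them. Genes that did not pass may still have changed.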

Other observations

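Ctsk, a cathepsin known from osteoclasts, was at 8.25, 18.0 and 7.27 CPM in PS replicates 1, 2 and 3, against 17.7, 11.0 and 15.7 CPM in CT replicates 1, 2 and 3 (log2 fold change -0.40 ± 0.32, adjusted p = 0.469). Its order over the 6 libraries was that of a list of 5 osteoclast genes, which summed to 19.1, 37.9 and 17.5 CPM in PS and 33.8, 25.5 and 31.0 CPM in CT. Most of that sum is Mmp9, a matrix metalloprotease, at 17.5, 34.8 and 14.8 CPM in PS and 30.5, 23.2 and 28.7 CPM in CT. Calcr, the calcitonin receptor of osteoclasts, was at 0 in PS replicate 1 and CT replicate 2 and reached 0.167 CPM, in PS replicate 2. Of the osteoclast genes 3 were tested, and none was called. A list of 6 fibroblast genes was also highest in PS replicate 2, at 92.6, 205 and 86.0 CPM in PS and 97.8, 99.0 and 76.8 CPM in CT. Ctsk was the member with the largest move under the macrophage covariate other than Ctsw, to -1.05 (adjusted p = 0.0603). The likeness to the osteoclast list was noticed after the values were seen, and the part of any cell type in the level of Ctsk was not tested.

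Man2b1 differed by less among the PS libraries (876.6 ± 0.591 CPM) than among the CT libraries (808 ± 65.6 CPM), in which CT replicate 2 was low. The difference in spread was not tested. With 3 libraries per group, so small an SD is not read as a trait of PS.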
